A study of Homo sapiens with 18 samples.

Results

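The genes described here are 10 genes of retinoid signalling, chosen by name as the nuclear receptors for retinoids and 4 genes that respond to or remove retinoids, out of 20098 protein-coding genes on chromosomes 1 to 22 and X. They are the retinoic acid receptors RARA, RARB and RARG, the retinoid X receptors RXRA, RXRB and RXRG, the enzymes CYP26A1, CYP26B1 and DHRS3, and the target gene TGM2. Each gene was described by the bases that peaks of linker histones H1.2 and H1.5 covered in its gene body, within 1000 bp of its transcription start site (TSS) and within 50 kb of it. The peaks came from undifferentiated HL-60/S4 cells, an established human myeloid leukemia line that grows in suspension, and these cells had received no treatment before fixation, so no response to retinoic acid was measured. In xChIP the fixed chromatin was sonicated before anti-H1.2 or anti-H1.5 was added, and in xxChIP the antibody was bound inside fixed and permeabilized cells and fixed in place before sonication. Both antibodies were rabbit polyclonal antibodies. With 2 antibodies and 2 protocols there were 4 groups of 3 replicates, whose peaks were merged into 1 list a group, and 6 Input samples were not used here. The lists give positions only, so the depth is unknown, no spread between replicates can be stated and no difference between lists can be tested. Peak positions also hold no marker by which the identity of the cells could be checked. The values below describe 4 merged lists, and the values of all protein-coding genes stand beside them for scale.

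All-trans retinoic acid enters the nucleus and binds a RAR, which sits on DNA together with an RXR. Without ligand the pair holds corepressors at its targets, and with ligand it recruits coactivators. The pair recognises 2 copies of a hexamer arranged as a direct repeat, most often with 5 bases between them (DR5), and repeats with other spacings bind RAR or RXR pairs as well. RARB, CYP26A1 and DHRS3 are themselves retinoic acid targets, so that the pathway induces a receptor, an enzyme that destroys its ligand and an enzyme that lowers the supply of its precursor. HL-60 cells are known for maturing toward granulocytes when they are given retinoic acid. Linker histones bind the nucleosome where DNA enters and leaves it and help to compact chromatin.

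The DR5 sequences nearest to the starts of these genes are given first, because they are where a RAR and RXR pair would be looked for beside the peaks. They were found on both strands of GRCh37, the sequence of hg19, as 2 hexamers with any 5 bases between them, where a hexamer could be the consensus AGGTCA, or the variant written AGTTCA, or that written GGGTCA, or else the form written GGTTCA. Capitals mark the hexamers and lower case the spacer, each read 5′ to 3′ on the strand named.
RARB, chr3:25469701-25469717, plus strand: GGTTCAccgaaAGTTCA
CYP26A1, chr10:94833560-94833576, minus strand: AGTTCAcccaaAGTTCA
RARA, chr17:38497905-38497921, plus strand: AGTTCAgcgagAGTTCA
DHRS3, chr1:12655995-12656011, minus strand: GGTTCAgccacAGGTCA
These were the 4 DR5 sequences that lay within 1000 bp of the start of a coding transcript of a member. How often a DR5 lies this near to a coding start over all genes was not counted. The RARB sequence lay at -45 bp from the canonical start of its gene, an internal one, the CYP26A1 sequence at -82 bp from its canonical start, the RARA sequence 273 bp past an internal start and the DHRS3 sequence 318 bp past an internal start. The first 3 lay in no peak of any list, and the DHRS3 sequence lay inside a peak of xChIP H1.2 and a peak of xChIP H1.5 and outside both xxChIP lists. Of all 5731 DR5 sequences on chromosomes 1 to 22 and X, at most 22.1% lay in the peaks of any 1 list. The share of them in no peak of any list was not counted. A match is a description of letters, and binding of a receptor was not measured.

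The starts of the 10 genes were largely bare of H1 peaks. Peaks of every list lay within 50 kb of each of them, which is near the shares of all genes. These shares were 99.8% (H1.2) and 99.5% (H1.5) in xChIP and 95.8% and 94.1% in xxChIP. No peak of any list came within 1000 bp of the TSS in 7 of 10 members, which were RARA, RARB, RARG, RXRB, CYP26A1, DHRS3 and TGM2, against 37.9% of all protein-coding genes. The TSS here is the outer 5′ end of the gene. Within 1000 bp of the canonical start 6 members were bare (39.5% of all genes). RARB was not among them, since an xChIP H1.5 peak reached into that window without reaching the start. With every coding start counted 4 were bare, RARA, RXRB, CYP26A1 and TGM2 (26.7% of all genes). The 3 members with a peak within 1000 bp of the outer TSS differed in the protocols that gave one. RXRA and CYP26B1 had an xChIP H1.2 peak and no xxChIP peak near the TSS, and 48.5% of all genes had an xChIP peak and no xxChIP peak there. RXRG was the single member with an xxChIP peak near its TSS, which 13.6% of all genes had. In xChIP the TSS window held an H1.2 peak in 2 members (48.2% of all genes) and an H1.5 peak in 1 (21.6%). In xxChIP it held an H1.2 peak in 1 member (8.78%) and an H1.5 peak in 1 (7.92%). The xxChIP counts of 1 in 10 are near these shares.

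**Figure D1:**
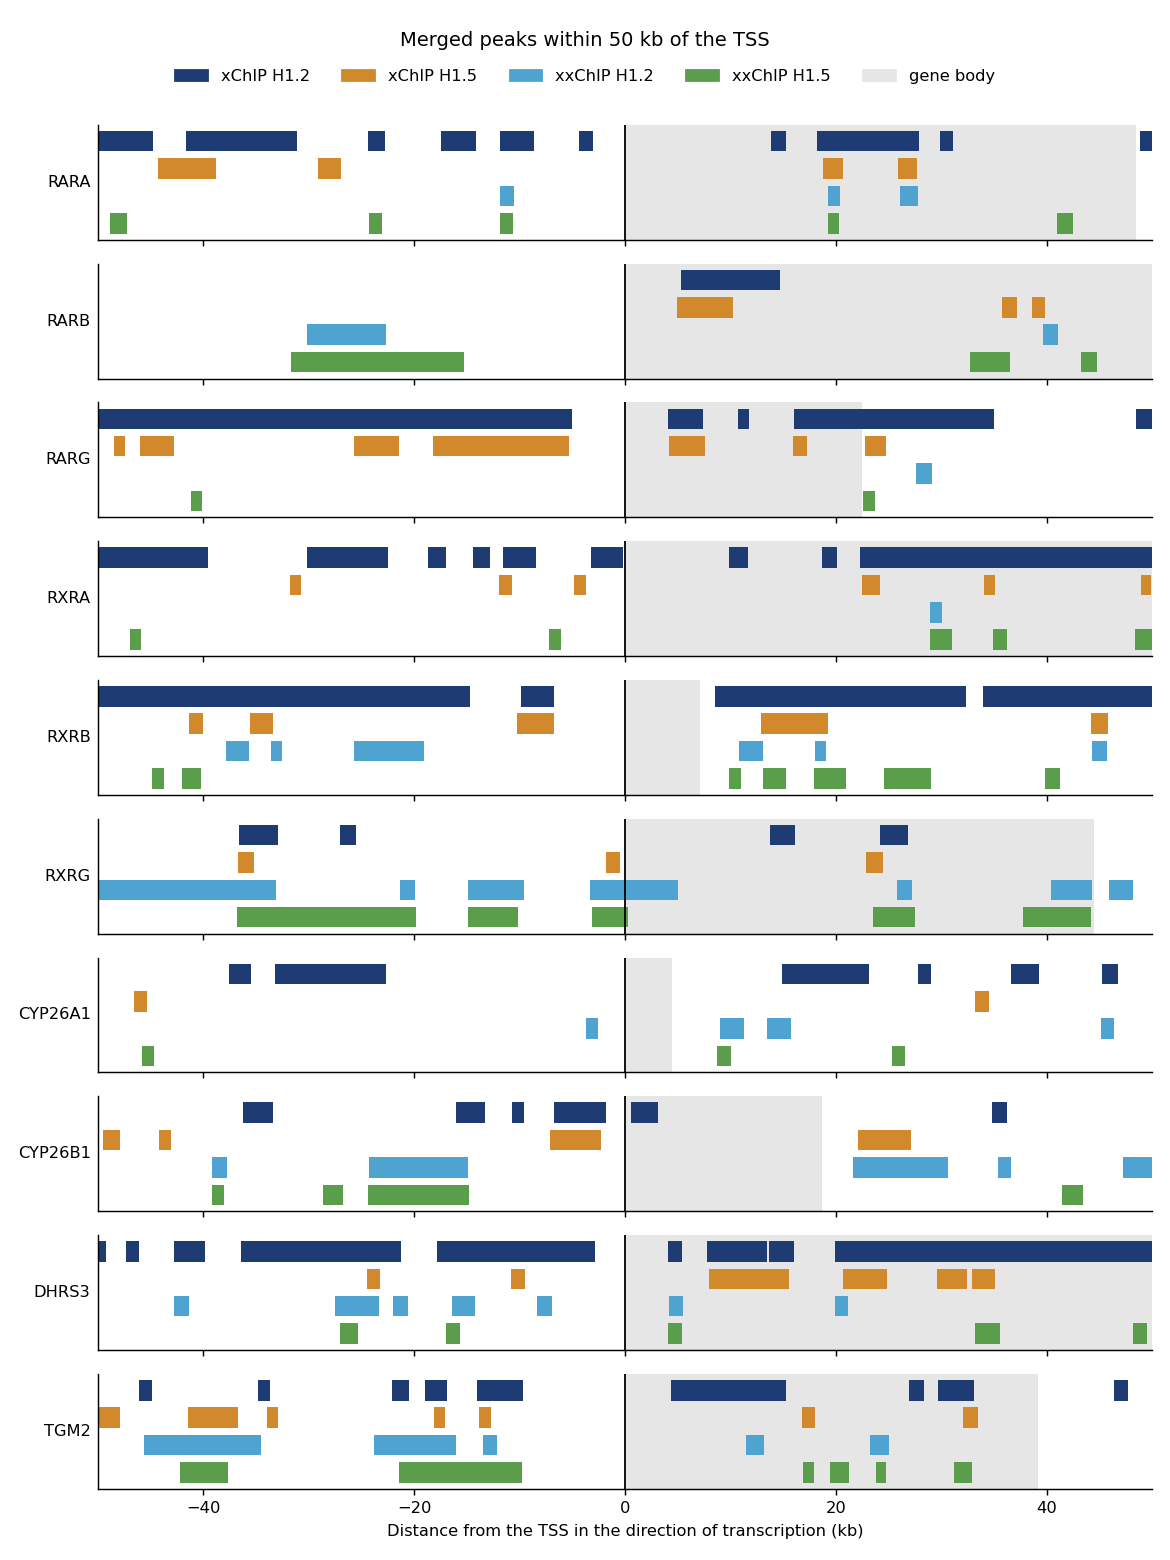
Peaks of the 4 merged lists within 50 kb of the TSS of each member, with the horizontal axis giving the distance from the TSS in kb in the direction of transcription, bars the peaks and grey the gene body. The line at 0 is free of peaks in 9 members and lies inside peaks of both xxChIP lists in RXRG.

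The stretch around each TSS that was free of peaks of all 4 lists shows how wide these bare starts were. The TSS itself lay outside every peak in 9 members, and in 55.4% of all protein-coding genes. The median free stretch was 10.7 kb over the members and 2.70 kb over all genes, where a TSS inside a peak counted as 0. The widest belonged to the outer TSS of RARB, at 20.2 kb, which was longer than that of 96.0% of all genes, while the stretch at its canonical start measured 6.59 kb. It was followed by RARA at 16.8 kb, RXRB at 15.3 kb and TGM2 at 14.0 kb. The narrowest above 0 was that of CYP26B1, at 2.38 kb, longer than in 48.7% of genes. The nearest peak of any list lay a median of 2974.5 bp from the TSS over the members and 368.5 bp over all genes, and the member with the farthest nearest peak was RXRB, at 6784 bp. At the canonical starts the median free stretch was 9.56 kb over the members and 3.00 kb over all genes, and the widest was that of RARA.

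Coverage of the members by distance from the TSS differed between the lists. In xChIP H1.2 their mean coverage was 6.02% within 1 kb of the TSS against 37.5% over all genes, then 17.0% against 41.1% from 1 to 5 kb, 34.8% against 42.7% from 5 to 10 kb and 45.5% against 43.3% from 10 to 25 kb. The members' mean in xChIP H1.5 was 2.51% against 11.6% within 1 kb, from RXRG alone, and 7.01% against 16.5% from 1 to 5 kb. It was 20.3% against 18.0% from 5 to 10 kb, 15.4% against 18.8% from 10 to 25 kb and 9.80% against 18.9% from 25 to 50 kb. It thus lay below all genes in every band but that from 5 to 10 kb. There 5 members had any coverage, and the median of the members was 10.8%. In the xxChIP lists the means within 1 kb, 10.0% for H1.2 and 6.41% for H1.5, came from RXRG alone. From 1 to 5 kb the xxChIP means were 10.4% against 9.92% for H1.2, from 3 members, and 3.78% against 8.29% for H1.5, from 2 members. From 5 to 10 kb the xxChIP means were 3.41% (H1.2) and 3.31% (H1.5), below the 12.6% and 10.4% of all genes. From 10 to 25 kb the xxChIP means of the members were 18.6% for H1.2 and 19.5% for H1.5, above the 13.1% and 11.03% of all genes. From 25 to 50 kb they were 13.7% against 13.3% for H1.2 and 14.1% against 11.3% for H1.5.

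**Figure D2:**
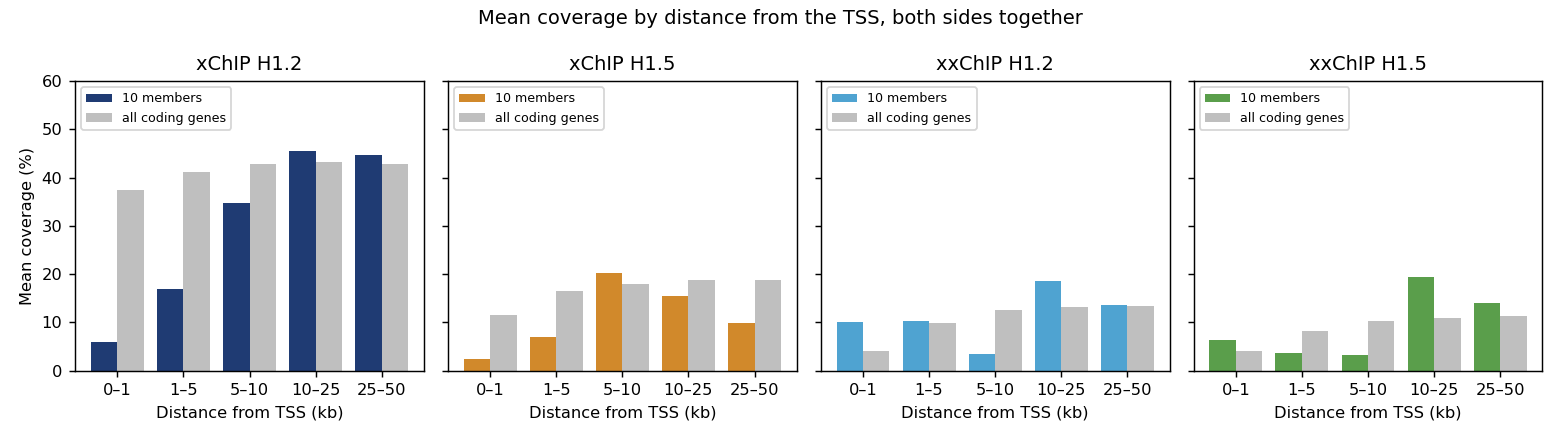
Mean share of bases covered by peaks (vertical axis, %) in bands of distance from the TSS (horizontal axis, kb, both sides together), with coloured bars for the 10 members and grey bars for all protein-coding genes, 1 panel per list. The xChIP H1.2 bar of the members rises from 6.02% within 1 kb to 45.5% from 10 to 25 kb, while the grey bars stay between 37.5% and 43.3%.

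The base composition of the starts varied among the members, and it is given at the outer TSS. CYP26A1, CYP26B1, RXRB and DHRS3 had CpG-rich starts, with at least 55% GC and CpG at 0.6 or more of the number its bases would give by chance, within 1000 bp of the TSS, and the outer TSS of the other 6 did not. This class depends on the start, since the canonical start of RXRA, with 76.0% GC and a CpG ratio of 0.932, and some internal coding starts of RARA, RARB and RARG meet both limits. Over all genes the share with no peak near the TSS was 40.3% among the 7158 CpG-rich starts and 36.6% among the other 12940. The xxChIP lists differed more between the classes, with 2.81% of CpG-rich starts against 12.1% of the others for H1.2, and 2.15% against 11.1% for H1.5. RXRG, with a GC content of 47.2% and a CpG ratio of 0.490, was not in the CpG-rich class. Whether base composition bears on the peaks of the members was not tested. The 200 bases just upstream of the TSS of RXRG, CYP26A1 and RXRB are shown because these genes were the covered start and the starts of the 2 members without a single peak in the gene body. Capitals mark CpG, and each is read 5′ to 3′ in the direction of transcription from GRCh37.
RXRG, chr1:165414593-165414792, minus strand: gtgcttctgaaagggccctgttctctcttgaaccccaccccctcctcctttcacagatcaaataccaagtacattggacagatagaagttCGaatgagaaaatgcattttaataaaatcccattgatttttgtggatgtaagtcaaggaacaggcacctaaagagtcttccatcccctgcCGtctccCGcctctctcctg
CYP26A1, chr10:94833032-94833231, plus strand: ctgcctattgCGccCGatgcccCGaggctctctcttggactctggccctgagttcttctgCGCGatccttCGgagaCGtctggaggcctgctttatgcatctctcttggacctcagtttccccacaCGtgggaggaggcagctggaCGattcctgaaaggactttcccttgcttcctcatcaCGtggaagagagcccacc
RXRB, chr6:33168443-33168642, minus strand: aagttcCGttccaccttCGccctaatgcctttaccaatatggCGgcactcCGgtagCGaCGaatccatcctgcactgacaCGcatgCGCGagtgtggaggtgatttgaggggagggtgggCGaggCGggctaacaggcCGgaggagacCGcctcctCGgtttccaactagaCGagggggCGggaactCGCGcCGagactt
The RXRG stretch held 3 CpG and a GC content of 46%, the CYP26A1 stretch 10 CpG and 58.5%, and the RXRB stretch 19 CpG and 61.5%. The first lay inside peaks of both xxChIP lists and the others in no peak.

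Gene bodies carried peaks in most members, in numbers close to those of all genes. In xChIP an H1.2 peak lay in the body of 8 members (82.9% of all genes) and an H1.5 peak in that of 7 (70.3%). In xxChIP the numbers were 6 for H1.2 (60.6%) and 6 for H1.5 (58.0%). RXRB and CYP26A1 were the 2 members with no peak in the gene body, a state found in 8.97% of all genes. They were also the shortest members, at 7.08 kb and 4.41 kb. The median body coverage of the members in xChIP was 19.4% for H1.2 and 7.19% for H1.5, and in xxChIP it was 3.44% and 6.81%. Over all genes the medians were 26.3% and 10.3% in xChIP and 5.88% and 4.30% in xxChIP, so that the members lay below in 3 lists and above in xxChIP H1.5.

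**Figure D3:**
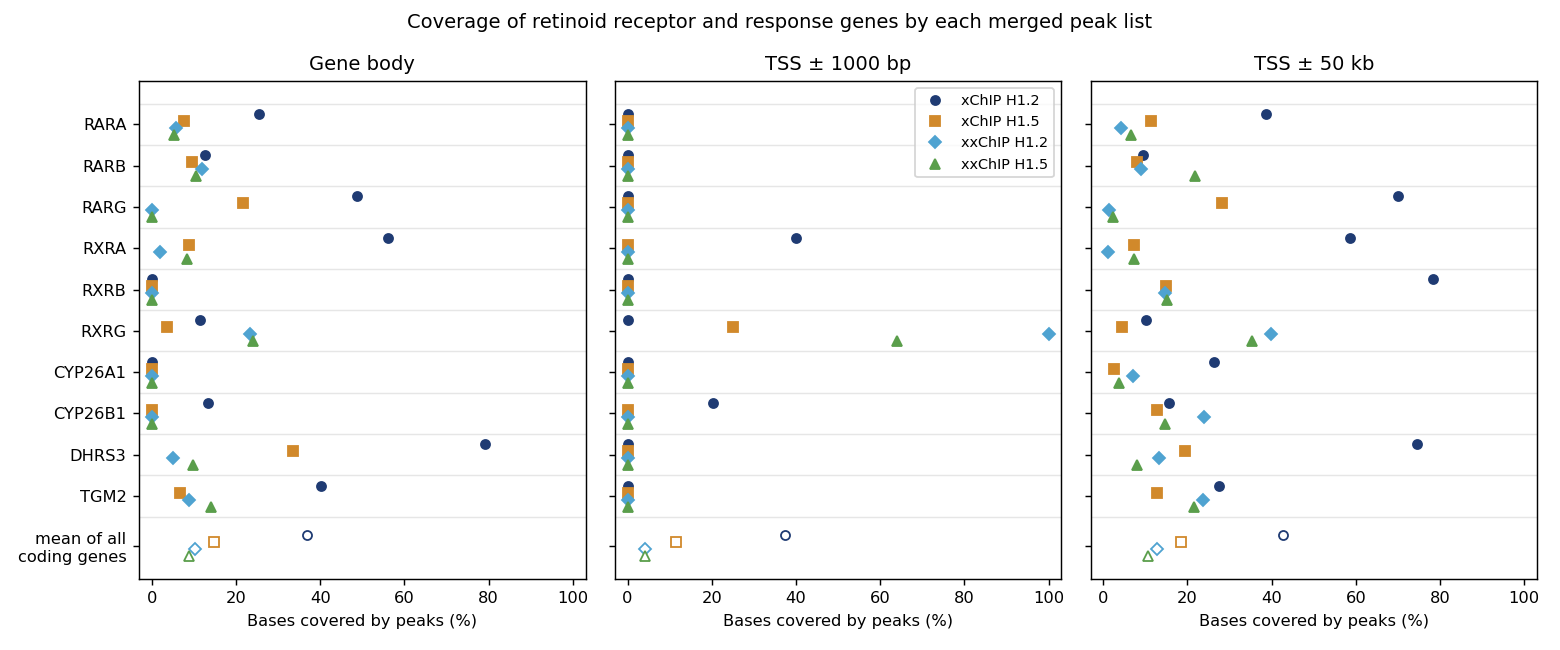
Share of bases covered by peaks (horizontal axis, %) in the gene body, within 1000 bp and within 50 kb of the TSS for each member, with 1 filled symbol per merged list and open symbols for the mean of all protein-coding genes. In the middle panel all symbols stand at 0 for 7 members, and in the right panel xChIP H1.2 runs from 9.36% in RARB to 78.3% in RXRB.

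Among the retinoic acid receptors, RARA is the form expressed most widely and the one prominent in myeloid cells. RARA (ENSG00000131759) lies on chr17:38465432-38513895 on the plus strand. In xChIP its body was covered to 25.4% by H1.2 and 7.74% by H1.5, and in xxChIP to 5.76% and 5.26%. None of its 7 coding transcript starts had a peak within 1000 bp, and the free stretch around its TSS ran 16.8 kb. Intron 1 then held a stretch of 1026 bp, chr17:38484701-38485726, that peaks of all 4 lists covered, 19.3 to 20.3 kb past the TSS. A segment shared by all lists was found in the body of 2 members, RARA and RARB, and in 15.7% of all genes. Around it xChIP H1.2 formed a 9.65 kb peak that ran through exon 2. Within intron 2 a peak of xChIP H1.5 and a peak of xxChIP H1.2 overlapped this same xChIP H1.2 peak, where xxChIP H1.5 had none. The DR5 sequence of RARA lay past all of these peaks, and the peak nearest to it, 1438 bp away, was a further xChIP H1.2 peak in intron 2, chr17:38495284-38496475. Upstream, 3 lists other than xChIP H1.5 had a peak that began between chr17 positions 38453551 and 38453556. The xxChIP H1.2 and xxChIP H1.5 peaks there ended 10544 and 10634 bp before the TSS.

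RARB is the receptor that retinoic acid induces from an internal promoter. RARB (ENSG00000077092) spans 910 kb on chr3:24729378-25639423 on the plus strand and has 12 distinct coding starts. Peaks were spread thinly along it, with 36 of H1.2 and 33 of H1.5 in xChIP and 30 and 36 in xxChIP. They covered 12.5% and 9.45% of the gene in xChIP and 12.0% and 10.4% in xxChIP, the narrowest spread between lists among the members with any peak in the body. Within 50 kb of its TSS the xxChIP H1.5 coverage was 21.7% against 8.96% for H1.2 in the same protocol and 9.36% (H1.2) and 7.99% (H1.5) in xChIP, and most of it lay in a 16.4 kb peak upstream of the gene, between -31.7 and -15.3 kb from the TSS.

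Peaks near coding starts of RARB were found at the 6 starts farthest downstream and at none of the 6 before them. The first 6 coding starts, the last of them 141 kb into the gene, had no peak within 1000 bp. Downstream, 5 starts between chr3 positions 25469377 and 25470192, among them the canonical start at 25469754, had a window reached by 1 xChIP H1.5 peak, chr3:25468291-25469462, which covered 54.3% of the first window, 35.4% of the canonical one and 13.5% of the last. The sixth, at 25499801, had 36.7% of its window under xChIP H1.2. None of the 12 starts had an xxChIP peak within 1000 bp. The DR5 sequence of RARB lay between the xChIP H1.5 peak, 247 bp away, and the canonical start, and the nearest xxChIP peaks ended 5143 bp (H1.2) and 5138 bp (H1.5) from it. Before the canonical start, 704 to 705 kb into the gene at chr3:25433231-25434533, peaks of all 4 lists overlapped over 1303 bp, and xxChIP H1.2 formed a 13.9 kb peak there. The RARB gene held 3 further DR5 sequences far from any coding start, of which 1 lay in an xxChIP H1.5 peak.

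**Figure D4:**
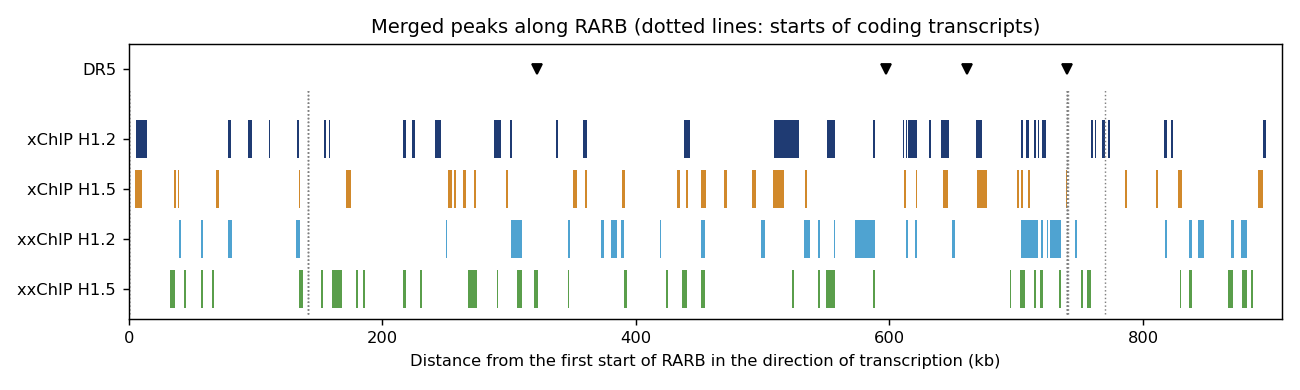
Peaks of the 4 merged lists along RARB, with the horizontal axis giving the distance from the first start in kb, dotted lines the coding transcript starts and triangles the DR5 sequences. Peaks of each list are scattered over the 910 kb, and the DR5 at the canonical start, the last triangle, lies beside an xChIP H1.5 peak and in no peak.

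RARG, the receptor best known from skin and cartilage, had the sharpest contrast between protocols of the 3 RARs. RARG (ENSG00000172819) lies on chr12:53604351-53626764 on the minus strand. In xChIP its body was covered to 48.7% by H1.2 and 21.7% by H1.5, and no xxChIP peak of either antibody lay in it. Within 50 kb of the TSS the coverage was 70.0% and 28.3% for xChIP and 1.48% and 2.20% for xxChIP H1.2 and H1.5. A 18.9 kb xChIP H1.2 peak, chr12:53591820-53610767, took in exons 4 to 10 and ran on into the neighbouring gene ITGB7, an integrin subunit of leukocytes. The xChIP H1.2 peaks took in 67.1% of the exon bases of RARG and 44.8% of the rest of the gene. Exon 3 lay under xChIP peaks of both antibodies with nearly equal ends, chr12:53619369-53622747 for H1.2 and chr12:53619169-53622647 for H1.5. A 52.0 kb xChIP H1.2 peak, chr12:53631808-53683775, lay upstream of the gene. Of the 7 coding starts, the 2 internal ones had 3.30% and 10.99% of their windows under xChIP H1.2, and the other 5 had no peak of any list.

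The retinoid X receptors are the common partners of the RARs and of several other nuclear receptors. RXRA (ENSG00000186350), the form best known in liver, skin and myeloid cells, lies on chr9:137208944-137332431 on the plus strand. In xChIP its body was covered to 56.0% by H1.2 and 8.80% by H1.5, and in xxChIP to 1.82% and 8.35%, and the gap between the antibodies in xChIP was the widest in any gene body of the 10. A 34.8 kb xChIP H1.2 peak lay within intron 1, and a 27.7 kb peak covered exons 7 to 10 and ran past the gene's end. Its exons were covered to 86.3% and the rest of the gene to 54.2%. Within 1000 bp of the TSS, xChIP H1.2 covered 40.0%, all of it upstream in a peak that ended 200 bp before the TSS. This TSS is the start of a non-coding transcript. At the canonical coding start, chr9 position 137218301, the GC content was 76.0% and xChIP H1.2 covered 24.9% of the window, and no other list had a peak at any of the 3 coding starts. The xxChIP peaks of RXRA were short, and both xxChIP H1.2 peaks of the body overlapped xxChIP H1.5 peaks inside intron 1.

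RXRB is the widely expressed form of RXR and lies in the major histocompatibility complex. RXRB (ENSG00000204231), on chr6:33161365-33168442 on the minus strand, had no peak of any list in its body or near its TSS. Yet xChIP H1.2 covered 78.3% of the 50 kb on either side, the highest value of the 10 members, against 14.9% for H1.5 in the same protocol and 14.7% (H1.2) and 15.2% (H1.5) in xxChIP. The gene sat in a gap of 15.3 kb, chr6:33159909-33175225, that also held the whole of HSD17B8 and SLC39A7. A 23.8 kb xChIP H1.2 peak closed the gap past the 3′ end of RXRB and a 71.2 kb peak lay further upstream. Of the covered bases of xChIP H1.2 within 50 kb, 96.0% lay in peaks of 20 kb or more. At the upstream edge of the gap the xChIP H1.2 and xChIP H1.5 peaks began at the same base, 33175226. With 4 DR5 sequences within 50 kb RXRB shared the highest number with CYP26A1, and 3 of its 4 lay in xChIP H1.2 peaks beyond the gene while the fourth, in the gap, lay in none.

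RXRG, the form found mainly in muscle and brain, had the opposite pattern to RXRB. RXRG (ENSG00000143171) lies on chr1:165370159-165414592 on the minus strand. Within 1000 bp of its TSS, H1.2 covered 100% and H1.5 64.1% in xxChIP, while in xChIP H1.2 covered none and H1.5 25.1%. Within 50 kb the xxChIP lists covered 39.8% (H1.2) and 35.4% (H1.5), which was above the values of 96.9% and 96.6% of all genes, and the xChIP lists 10.3% (H1.2) and 4.46% (H1.5). The xxChIP H1.2 peak over the TSS, chr1:165409590-165417951, was 8362 bp long and the xxChIP H1.5 peak, chr1:165414311-165417704, lay wholly inside it. Both coding starts of the gene lay in both peaks. A 63.1 kb xxChIP H1.2 peak and a 16.9 kb xxChIP H1.5 peak lay upstream. The last exon, exon 10, was reached by peaks of both xxChIP lists as well, and exons were covered to 36.3% (H1.2) and 33.3% (H1.5) by xxChIP against 6.44% by xChIP H1.2. The 2 xChIP H1.2 peaks of the body lay in intron 1 and around exon 3.

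The CYP26 enzymes hydroxylate retinoic acid and so clear it from the cell. CYP26A1 (ENSG00000095596), the form most strongly induced by retinoic acid, lies on chr10:94833232-94837642 on the plus strand and had no peak in its body or near its TSS. It lay alone in a gap of 11.3 kb between an xxChIP H1.2 peak upstream and an xxChIP H1.5 peak downstream. Within 50 kb, H1.2 covered 26.4% and H1.5 2.55% in xChIP, the latter the lowest value of that list in the 10, and 6.97% and 3.77% in xxChIP. Its upstream neighbour CYP26C1, another enzyme of the family, also had no peak within 1000 bp of its TSS. In the overlapping window within 50 kb of CYP26C1, xChIP H1.5 likewise covered 2.55%, so the low value was not particular to CYP26A1. No other member lies on chromosome 10, and the coverage of that chromosome as a whole is not given here. Of the 4 DR5 sequences around CYP26A1, the one at its start and another at -1.55 kb from the TSS lay in no peak, and those at -2.95 and 10.1 kb lay in xxChIP H1.2 peaks at the edges of the gap. The DR5 at the start was 2946 bp from the nearest peak.

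CYP26B1 (ENSG00000003137), on chr2:72356367-72374991 on the minus strand, had 1 peak in its body, an xChIP H1.2 peak of 2484 bp in intron 1 that covered 13.3% of the gene and 20.2% of the TSS window. Upstream, an xChIP H1.2 peak that ended at -1787 bp from the TSS and an xChIP H1.5 peak that ended 2299 bp before it overlapped. Within 50 kb the coverage was 15.7% for H1.2 and 12.8% for H1.5 in xChIP, and 23.9% and 14.6% in xxChIP. With RXRG it was thus 1 of the 2 members in which xxChIP H1.2 covered more than xChIP H1.2. The longest xxChIP peak of each antibody in this window lay upstream, and the peaks had nearly equal ends, chr2:72389848-72399298 for H1.2 and chr2:72389777-72399355 for H1.5.

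DHRS3 reduces retinaldehyde to retinol and so lowers the supply from which retinoic acid is made. DHRS3 (ENSG00000162496), on chr1:12627939-12678216 on the minus strand, had the highest xChIP coverage of any gene body of the 10, with 79.2% for H1.2 and 33.6% for H1.5, against 5.07% and 9.80% in xxChIP H1.2 and H1.5. A 44.4 kb xChIP H1.2 peak, chr1:12613950-12658366, took in exons 4 to 8 and ran past the gene's end. The TSS lay in a free stretch of 6940 bp, and 4057 bp into the gene, in intron 3, peaks of 3 lists other than xChIP H1.5 overlapped with nearly equal ends, chr1:12672842-12674159 for xChIP H1.2, chr1:12672760-12674068 for xxChIP H1.2 and chr1:12672853-12674124 for xxChIP H1.5. An internal coding start, at chr1 position 12656321, had 100% of its window under both xChIP lists, 9.70% under xxChIP H1.2 and none under xxChIP H1.5, and was the most fully covered by xChIP of the 44 coding starts of the members. The DR5 sequence shown above lay beside this start, under both xChIP peaks, and a further DR5 in the same intron, chr1:12664608-12664624, lay in an xChIP H1.5 peak and 80 bp from an xChIP H1.2 peak.

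TGM2 encodes tissue transglutaminase, which cross-links proteins and is induced by retinoic acid in myeloid cells. TGM2 (ENSG00000198959) lies on chr20:36755787-36794980 on the minus strand. In xChIP its body was covered to 40.2% by H1.2 and 6.64% by H1.5, and in xxChIP to 8.85% and 14.1%. None of its 3 coding starts had a peak within 1000 bp, and the first peak into the gene was a 10.9 kb xChIP H1.2 peak that began 4370 bp from the TSS and took in exons 2 and 3. In xChIP, H1.2 peaks held 16.2% of its exon bases and 43.8% of the rest of the gene. Upstream, segments of 733 bp at -13.5 to -12.8 kb and of 1045 bp at -18.1 to -17.1 kb from the TSS were covered by all 4 lists. Within 50 kb its lists were closer together than in most members, at 27.6% (H1.2) and 12.7% (H1.5) in xChIP and 23.6% and 21.7% in xxChIP.

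Across the 10 genes, xChIP H1.2 covered more bases within 50 kb of the TSS than xChIP H1.5 in 10 members, against 84.5% of all genes. The ratio ran from 1.17 in RARB and 1.23 in CYP26B1 to 8.14 in RXRA and 10.3 in CYP26A1. In xxChIP, H1.2 covered more than H1.5 in 5 members (60.8% of all genes), which were RXRG, CYP26A1, CYP26B1, DHRS3 and TGM2. For H1.2, xChIP covered more than xxChIP in 8 members (78.6% of all genes), and the ratio ran from 0.258 in RXRG to 47.3 in RARG and 50.5 in RXRA. It was near 1 in RARB, at 1.05, and 1.17 in TGM2. Without peaks of 20 kb or more this count was 7, and that of xChIP H1.2 over xChIP H1.5 was 8. For H1.5, xChIP covered more than xxChIP in 3 members, RARA, RARG and DHRS3, where 69.7% of all genes did. The ratio was 12.8 in RARG and 0.126 in RXRG, and in RXRA and RXRB it was 0.985 and 0.981, so that these 2 genes fall on the lower side by a small margin. The lists differ in how much of the genome they cover, at 26.4% (H1.2) and 16.3% (H1.5) in xChIP and 20.2% and 17.2% in xxChIP, and these ratios are not corrected for it. The medians of the members within 50 kb were 33.2% (H1.2) and 12.0% (H1.5) in xChIP and 11.04% and 11.3% in xxChIP. Those of all genes were 36.2% and 15.4% in xChIP and 9.76% and 7.69% in xxChIP.

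Taking every annotated coding start in place of 1 TSS per gene, 16 of 44 starts had a peak of some list within 1000 bp, against 61.3% of the 78532 coding starts of all genes. In xChIP, H1.2 peaks lay at 9 starts (47.6% of all) and H1.5 peaks at 8 (21.0%), and in xxChIP at 3 (8.03%) and 2 (7.10%), and both of the last were the starts of RXRG. Starts of 1 gene can share a peak, as 5 internal starts of RARB did. RARA, RXRB, CYP26A1 and TGM2 had no peak at any of their coding starts.

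The DR5 search found 11 sequences within 50 kb of the TSS of 4 members, RARA, RXRB, CYP26A1 and DHRS3, and 19.5% of all genes had at least 1 at this distance. CYP26A1 was the single member with a DR5 within 1000 bp of its gene TSS, where 0.473% of all genes had one. Of the 11, 4 lay in H1.2 peaks and 2 in H1.5 peaks of xChIP, 2 in H1.2 peaks and none in H1.5 peaks of xxChIP, and 4 in no peak at all. Of the 5731 DR5 sequences on chromosomes 1 to 22 and X, 22.1% lay in H1.2 and 11.8% in H1.5 peaks of xChIP, and 15.0% and 11.8% in those of xxChIP. How many of the 5731 lay in no peak at all was not counted. Direct repeats spaced by 2 bases (DR2) were far more frequent, with 48 around 9 members and at least 1 around 95.5% of all genes. Of the 48, 34 were the single sequence AGGTCAggAGTTCA, which many Alu repeats carry, and 31 lay in xChIP H1.2 peaks, where 55.2% of all DR2 sequences lay. Repeats spaced by 1 base (DR1) were found once each around 6 members, and 34.0% of all genes had at least 1 at this distance. Of the 6, 1, near RXRB, lay in a peak, of xChIP H1.2, where 37.5% of all 11083 DR1 sequences lay.

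Other genes of the pathway were counted in the same way. Among 24 further retinoid genes (transport and synthesis enzymes, coregulators and targets), 12 (50.0%) had no peak of any list within 1000 bp of the TSS, and among 13 nuclear receptors that pair with RXR, 3 (23.1%) had none. The share over all protein-coding genes was 37.9%. Coverage by xChIP H1.2 within 50 kb ranged from 7.10% at NRIP1 and 8.94% at ALDH1A1, a retinaldehyde dehydrogenase, to 98.6% at the coactivator NCOA3. Among the partners it ranged from 4.76% at THRB, a thyroid hormone receptor, and 16.1% at NR4A2 to 86.9% at PPARD and 94.7% at NR1H3, a liver X receptor. An xxChIP peak near the TSS was found in 4 of the 24 and in 3 of the 13, against 13.6% of all genes. Of the 4, LRAT, which stores retinol as its ester, had 100% of the window under xxChIP H1.5 and STRA6, the retinol transporter, 89.3% under xxChIP H1.2. CD38, also of the 4, had 2.65% under xxChIP H1.5. In CEBPE, a granulocyte transcription factor induced by retinoic acid, and in CRABP2, a carrier of retinoic acid, xChIP H1.2 covered the whole TSS window at 100% and the other lists none of it, a combination seen at no gene TSS of the 10 members. LRAT, STRA6, CD38, CEBPE and CRABP2, and CYP26C1, HSD17B8 and SLC39A7 above, were named after their values were seen.

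Over the 12 values of a gene, made up of 3 windows in 4 lists, the genes with coverage most like that of RARA were FAM107B, TMEM143 and FRY, with mean absolute differences of 1.36, 1.43 and 1.49 percentage points. Those most like RARB were ZFHX3, MIPEP and ADGRV1, at 1.57, 1.57 and 1.63 points.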

How the data were processed

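The authors fixed undifferentiated HL-60/S4 cells, immunoprecipitated H1.2 and H1.5 by xChIP or xxChIP, used Bowtie2 to place paired reads on hg19, discarded reads that mapped to more than a single place, ran MUSIC to call enrichment and merged the peaks of 3 replicates. The deposited lists hold peak positions without a score, height or read number, so depth is unknown. Merging offset peaks can lengthen them. No per-sample column was left unmapped. Peaks did not overlap within a list. The share of bases they covered was computed for 20098 protein-coding genes of GENCODE v44 lifted to GRCh37, in the gene's outer limits and within 1000 bp and 50 kb of its 5′ end, with overlap counted from 1 bp. Gene symbols of all 10 members, 24 further retinoid genes and 13 RXR partners matched. Direct repeats were searched in GRCh37 without mismatches. No test was made, because each group is 1 merged list and genes are not replicates. The members and lists were chosen with earlier results of these data known. For RARA and RARB the 3 genes over 1 Mb away or on another chromosome with the smallest mean absolute difference over 12 values were named, in the other lists the 2 genes with the highest and the 2 with the lowest xChIP H1.2 coverage within 50 kb, and neighbours where 1 peak joined them to a member. A gene that this rule names is not reported here. Covering and searching steps were tested on simulated data. Python 3.11.15, numpy 2.4.6 and matplotlib 3.10.9 were used. Alternatives changed the windows, the TSS, the peak lengths, the overlap rule and the repeat spacing. Reads, Input samples and expression were not analysed here.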

Additional observations from a re-analysis of the deposited data

How the results depend on the processing

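No paired analysis was possible because each list is a merge of its replicates, and for the same reason no replicate could be left out. Of 107 alternative values, 62 were counted as stable and 45 as moved. The limit was 1.5 times for counts and the free stretch, and for median coverage a 95% Wilson interval that takes each base as independent, which is far narrower than the spread over 10 genes. Values in fours give H1.2 and H1.5 in xChIP and then in xxChIP. The 2, 1, 1 and 1 members with a peak at the TSS became 1 within 500 bp for the first list, 2 within 2500 bp for the second, 5, 3 and 2 in the first 3 at any coding start, and 2 for the second at the canonical start, an alternative chosen after seeing the data. The 7 members with no peak of any list became 4 at any coding start, also chosen after seeing the data. With 50% of the window covered, 0 members remained in either xChIP list. Members with xChIP and no xxChIP at the TSS went from 2 to 1 within 500 bp and 4 at any coding start. With 50% of the gene covered, 2, 0, 0 and 0 members had a gene body peak.

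Median body coverage became a mean of 28.7%, 9.16%, 5.69% and 7.20%. It was 15.6% for xChIP H1.2 without peaks of 20 kb or more and 7.15% for xxChIP H1.5 over the longest coding transcript. Median coverage within 50 kb became 35.8%, 9.39%, 14.9% and 10.4% within 25 kb and 36.5%, 15.0%, 12.2% and 12.3% within 100 kb. With the gene body added it was 35.6% and 11.5% for xChIP and 10.1% for xxChIP H1.5. As a mean it was 40.9% for xChIP H1.2, and in xxChIP 13.8% for H1.2 and 13.7% for H1.5, and without peaks of 20 kb or more it was 24.9% for xChIP H1.2.

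Within 1000 bp, H1.2 exceeded H1.5 in 2 members in xChIP and 1 in xxChIP, and xChIP exceeded xxChIP in 2 for H1.2 and 0 for H1.5, since most windows hold no peak. In gene bodies xxChIP H1.2 exceeded xxChIP H1.5 in 2 members, and within 100 kb xChIP H1.5 exceeded xxChIP H1.5 in 5. The 11 DR5 became 48 as DR2, 6 as DR1 and 1 within 1000 bp.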
